A study of Mus musculus with 10 samples.

Results

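The genes for translation initiation factors were followed in mouse morulae of Jarid2 knockout and control genotype. Jarid2 encodes an accessory subunit of PRC2, the Polycomb complex that methylates histone H3, and the series compares knockout with control. The genes were the rows of the count table whose symbol begins with Eif and a digit of 1 to 6, without the eIF2 kinases, the Y-linked Eif2s3y and pseudogenes. This gave 51 of 35976 genes. Eif2c5 carries an older symbol of the Argonaute family, had at most 0.04 CPM (counts per 1000000 counts of the library) in any library and was not tested. The filter on low counts left 49 genes in single embryos, where Eif4e1b did not pass it, and 50 in pools. The measured groups were single female Jarid2 knockout morulae (replicates 1, 3 and 4), single female wild-type morulae (replicates 1 to 3), Jarid2 knockout pools of about 20 morulae (2 libraries) and control pools of about 20 morulae (2 libraries), all of the strain combination BDF1 x PWK. The sources used here give neither how the knockout was made, nor the genotype behind the word control, nor the sex of the pooled embryos. Each single-embryo library is a separate embryo per the labels. For the pools nothing says that they came from separate litters, so p-values there measure only how far these particular pools vary, and that variation may be technical.

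Translation begins when the small ribosomal subunit, carrying the initiator tRNA on eIF2, is brought to the capped end of an mRNA. The cap is bound by eIF4E, the helicase eIF4A opens the leader, eIF4G holds them together, and the large complex eIF3 joins them to the ribosome. After the start codon is found, GTP is hydrolysed with the help of eIF5, eIF5B joins the large subunit, and eIF2B recharges eIF2 for the next round. By the morula stage most maternal mRNA has been cleared and the embryo transcribes its own genes.

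A single-embryo library held 14830332 to 18696312 counts, and a pool held 41003216 to 49861963. Jarid2 had 156, 319 and 61.3 CPM in knockout single embryos 1, 3 and 4, against 580.3, 686 and 776 CPM in wild-type single embryos. In the pools it had 181 and 158 CPM in knockouts, against 442 and 496 CPM in controls. Its log2 change was -1.92 (SE 0.43, edgeR adjusted p = 0.0342) in single embryos and -1.55 (SE 0.18, adjusted p = 0.0794) in pools. Without knockout replicate 1 or 4, or wild-type replicate 1 or 3, the single-embryo change of Jarid2 was no longer past 5% (log2 change -2.53 to -1.52 with 1 library left out). A principal component analysis put 37.9% of the variance on its first axis, where the wild-type single embryos lay at 41.3 to 77.5. Knockout single embryos lay at -41.7 to 11.8, and pools of both genotypes at -39.2 to -17.6. The 12 markers of morula and early blastocyst summed to 2300 to 3515 CPM in knockout single embryos, 3332 to 3578 CPM in wild-type single embryos, 1673 to 2227 CPM in knockout pools and 1852 to 2275 CPM in control pools, and none was at 0 in every library of a group. Of these 12, 1 passed in single embryos by edgeR, against 4.37% of all genes. This was Cdh1, the gene of E-cadherin, with 124, 248 and 109 CPM in knockouts, against 812, 405 and 608 CPM in wild types (log2 change -1.91, SE 0.32, adjusted p = 0.0180). The part of these differences in the results was not tested. The 12 cumulus and granulosa markers summed to 1.07 to 9.91 CPM, with 6 to 8 of them at 0 throughout a group. The 5 oocyte markers summed to 36.3 to 97.9 CPM in knockout single embryos, 46.5 to 163 CPM in wild-type single embryos, 60.1 to 72.4 CPM in knockout pools and 61.3 to 73.9 CPM in control pools.

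In single embryos the initiation factor genes stood higher in knockouts than in wild types. Their counts made up 2.43%, 2.16% and 2.39% of all counts in knockout single embryos 1, 3 and 4, against 1.64%, 1.76% and 1.73% in wild-type single embryos 1 to 3. The lowest knockout share lay above the highest wild-type share. In the pools the shares were 2.31% and 2.16% in knockouts, against 2.37% and 2.12% in controls, and these overlapped. The wild-type single embryos were thus the only group below 2% of counts. In RNA of whole embryos, fewer cells of a type and less RNA per cell cannot be told apart.

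Of the 49 genes tested in single embryos, 10 rose past an adjusted p of 0.05, which is 20.4% of them. Over all 13830 genes tested the share that rose was 1.16%, and the share that changed in either direction was 4.37%. The 10 genes were Eif4a1, Eif3m, Eif4e, Eif2b1, Eif3g, Eif4a3, Eif6, Eif5, Eif3k and Eif3i. By edgeR 0 fell, against 3.21% of all genes, and 1 (Eif4g1) was lower at an unadjusted p under 0.05. DESeq2 called 22 higher, against 6.88% of all genes, and 1 (Eif4g1) lower, against 7.27%. By limma-voom 12 were higher, against 1.54% of all genes, and 0 lower, against 3.93% (5.47% in either direction). At an unadjusted p under 0.05, 26 of 49 passed, against 22.6% of all genes, with 25 higher (all genes 10.4%) and 1 lower (all genes 12.2%). In 25 genes every knockout lay above every wild type, against 12.6% of all genes, and in 1 every knockout lay below, against 15.3%. The median log2 change was 0.52 over the 49 genes and -0.03 over all genes, and 41 of the 49 were above 0, against 48.3% of all genes. None of the 10 calls held when knockout replicate 1, knockout replicate 4, wild-type replicate 1 or wild-type replicate 3 was left out. The numbers of initiation factor genes at an unadjusted p under 0.05 were then 24, 24, 23 and 26. At an adjusted p under 0.05, 66, 1, 41 and 1 of all genes were called in these fits. The thresholds differ, so these counts cannot be set against each other. The share of all genes at an unadjusted p in these fits is not given here. Without wild-type replicate 2, 5 calls remained (Eif2b1, Eif3g, Eif3m, Eif4a1 and Eif5), against 0.892% of all genes called higher. Without knockout replicate 3, 19 genes were higher, against 4.14% of all genes, and 1 (Eif4g1) was lower. The median log2 change ran from 0.46 to 0.63 with 1 library left out.

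**Figure D1:**
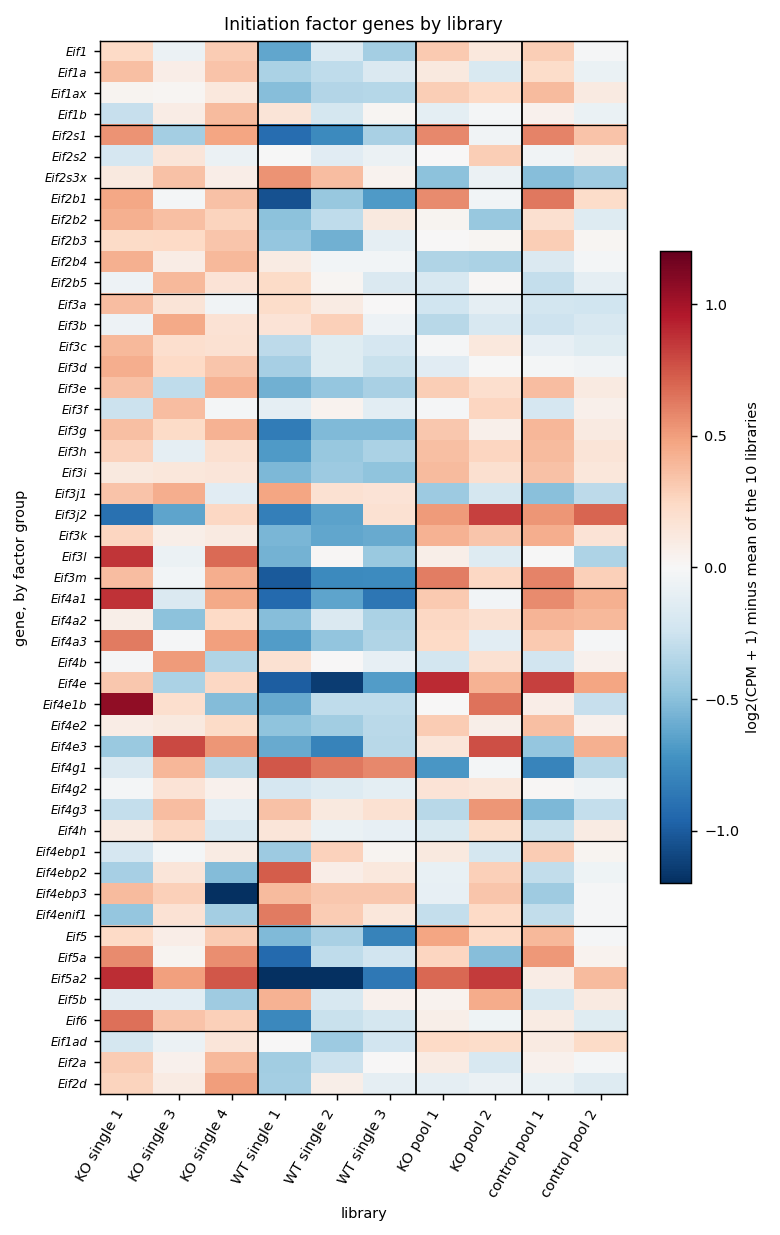
Each row is an initiation factor gene, ordered by factor group, and each column a library; the colour gives log2(CPM + 1) minus the gene's mean over the 10 libraries, and the scale ends at 1.2 in either direction. The 3 wild-type single embryos carry most of the low values, and Eif4g1 is high in them; Eif2c5 is left out.

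eIF4, grouped here by symbol, recognises the cap and prepares the mRNA, except for Eif4a3, whose product is not part of the cap-binding complex. Of its 11 tested genes 3 (Eif4a1, Eif4e and Eif4a3) rose and 0 fell by edgeR, with 5 at an unadjusted p under 0.05 and a median log2 change of 0.38. For this and the following factor groups, the shares of all genes were 1.16% higher and 3.21% lower by edgeR. At an unadjusted p under 0.05 the share was 22.6%. Eif4a1 (chromosome 11, 69666936 to 69672423) encodes the main cytoplasmic form of the helicase eIF4A. It had 1146, 559 and 865 CPM in knockout single embryos 1, 3 and 4, against 329, 405 and 344 CPM in wild-type ones. The groups did not overlap, and knockout 1 was highest. The means were 857 ± 294 CPM in knockouts and 359 ± 40.5 CPM in wild types (SD, n = 3 each). The log2 change was 1.33 (SE 0.27, edgeR adjusted p = 0.0268), a rise of 2.51-fold. Of the 75-base windows of its transcript, 62.9% also occur in another transcript, nearly all in the pseudogene Eif4a-ps4, so its counts are uncertain to that extent.

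Eif4e (chromosome 3, 138526191 to 138559696), which encodes the cap-binding protein itself, had 286, 175 and 272 CPM in knockout single embryos, against 114, 103 and 143 CPM in wild-type ones. Knockout 3 was the lowest knockout and still above the highest wild type. Its log2 change was 1.09 (SE 0.26, adjusted p = 0.0422). Eif4a3 (chromosome 11, 119288363 to 119300043) encodes a helicase related to eIF4A that sits in the exon junction complex and is not part of the cap-binding complex. It had 771, 495 and 703 CPM in knockout single embryos, against 313, 362 and 391 CPM in wild-type ones, a log2 change of 0.95 (SE 0.23, adjusted p = 0.0421) with no overlap. Eif4a2, the other cytoplasmic eIF4A gene, had 448, 302 and 505 CPM in knockouts, against 299, 378 and 329 CPM in wild types. These ranges overlapped, and its log2 change of 0.38 (SE 0.23, adjusted p = 0.364) did not pass. Per kilobase of transcript, the Eif4a1 level was 3.90, 2.82 and 2.62 times that of Eif4a2 in knockout single embryos, against 1.68, 1.64 and 1.60 times in wild-type ones. In the pools the ratio was 2.37 and 1.93 in knockouts, against 2.52 and 2.30 in controls. The ratio was therefore lowest in the wild-type single embryos, without overlap with any other library.

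Eif4g1, the gene of the eIF4G scaffold, lay lower in knockouts while Eif4e and Eif4a1 rose. It had 349, 517 and 313 CPM in knockout single embryos, against 661, 609 and 586 CPM in wild-type ones, with no overlap. Its log2 change of -0.62 (SE 0.19, adjusted p = 0.0828) did not pass. In the pools it had 242 and 387 CPM in knockouts, against 226 and 311 CPM in controls. It was the only gene of the 49 in which every wild-type single embryo lay above all 7 other libraries, a pattern seen in 11.5% of all genes. Per kilobase, the Eif4e level was 0.93, 0.38 and 0.98 times that of Eif4g1 in knockout single embryos, against 0.20, 0.19 and 0.28 times in wild-type ones. In the pools it was 1.98 and 0.89 times in knockouts, against 2.02 and 1.15 times in controls. The related scaffold genes did not pass in single embryos, with log2 changes of 0.27 (SE 0.15) for Eif4g2 and -0.17 (SE 0.25) for Eif4g3. The genes of the accessory proteins that stimulate the helicase, Eif4b and Eif4h, had log2 changes of 0.09 (SE 0.22) and 0.12 (SE 0.18). Eif4e2, whose product binds caps and can repress translation, had 0.60 (SE 0.18, edgeR adjusted p = 0.0749) with no overlap between groups, and DESeq2 called it higher. Eif4e3 had at most 3.05 CPM in any library, and Eif4e1b, an oocyte form of the cap-binding protein, at most 2.16 CPM.

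The proteins that hold eIF4E back formed the only group with a median below 0 in single embryos. Of 4 genes 0 passed by edgeR, DESeq2 or limma-voom, with 0 at an unadjusted p under 0.05 and a median log2 change of -0.48. Eif4ebp1, the gene of the 4E-binding protein 1, had 543, 614 and 667 CPM in knockout single embryos, against 460.3, 757 and 635 CPM in wild-type ones, and the wild types spanned the knockouts. The log2 changes were 0.02 (SE 0.20) for Eif4ebp1, -0.56 (SE 0.31) for Eif4ebp2, -0.40 (SE 0.55) for Eif4ebp3 and -0.55 (SE 0.27, adjusted p = 0.255) for Eif4enif1. Eif4enif1 encodes a transporter that carries eIF4E into the nucleus and had 28.3, 44.4 and 29.3 CPM in knockouts, against 60.9, 48.8 and 43.4 CPM in wild types. Only knockout 3 reached into the wild-type range. Relative to Eif4e, the Eif4ebp1 level per kilobase was 4.74, 8.74 and 6.13 in knockout single embryos, against 10.1, 18.4 and 11.1 in wild-type ones.

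**Figure D2:**
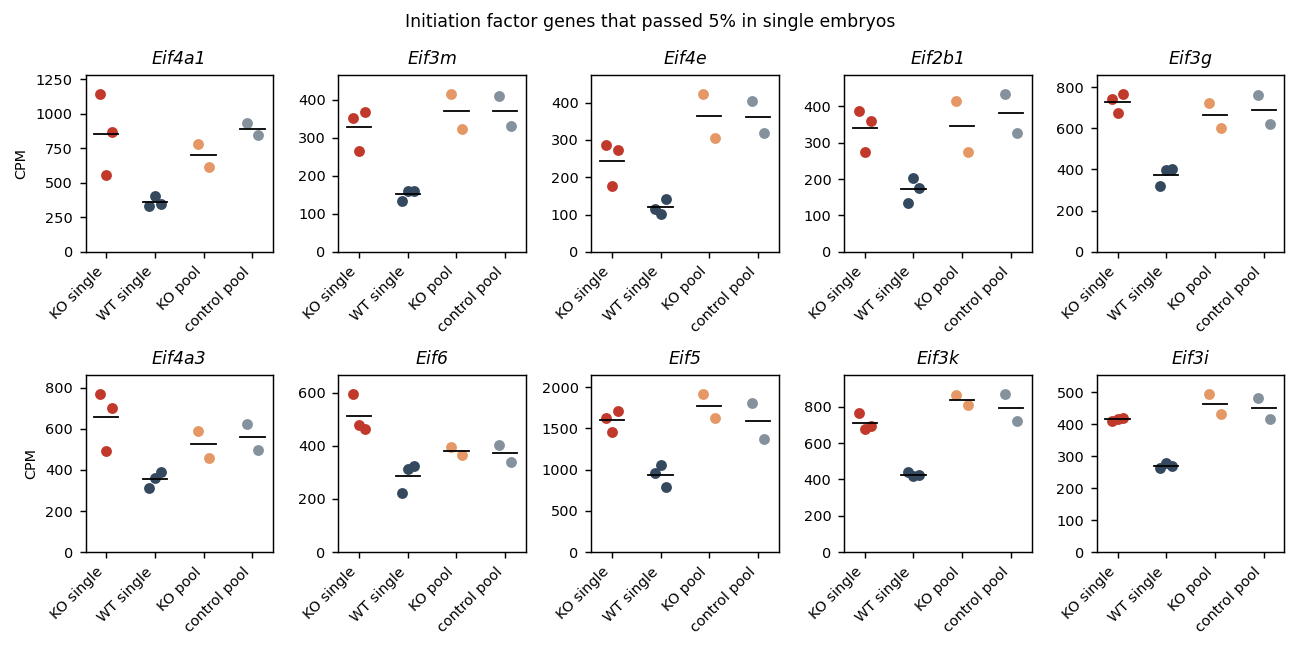
CPM of the 10 initiation factor genes that rose in single embryos, 1 panel per gene, with a point per library and a line at the group mean, on linear axes from 0. In each panel the 3 wild-type single embryos lie below all 7 other libraries. The genes were chosen by their difference between knockout and wild-type single embryos, so their order within that set is no separate result.

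Of the 14 tested genes of eIF3 subunits 4 rose (all genes 1.16%) and 0 fell (all genes 3.21%). At an unadjusted p under 0.05 there were 9 (all genes 22.6%), and the median log2 change was 0.66. Eif3m (chromosome 2, 104999656 to 105017027) had 351, 264 and 367 CPM in knockout single embryos, against 134, 159 and 160.1 CPM in wild-type ones. Its log2 change was 1.17 (SE 0.22, edgeR adjusted p = 0.0202), with no overlap. A share of 21.9% of its windows recurs elsewhere, mostly in the pseudogene Gm7658, and its exons overlap Ccdc73 on the other strand. Eif3g (chromosome 9, 20894349 to 20898590), an RNA-binding subunit, had 741, 675 and 769 CPM in knockouts, against 321, 398 and 400.0 CPM in wild types. It changed by 1.02 on the log2 scale (SE 0.18, adjusted p = 0.0189), the smallest adjusted p among the initiation factor genes, and none of its windows recurs in another transcript.

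Eif3k (chromosome 7, 28971372 to 28981890) had 768, 675 and 692 CPM in knockout single embryos, against 440.2, 418 and 423 CPM in wild-type ones, a log2 change of 0.79 (SE 0.17, adjusted p = 0.0309). Eif3i (chromosome 4, 129591974 to 129600648) had 411, 417 and 421 CPM in knockouts, against 262, 279.5 and 271 CPM in wild types, a log2 change of 0.67 (SE 0.17, adjusted p = 0.0469). Neither gene overlapped between groups, and neither shares windows with another transcript. The subunit genes Eif3a and Eif3b stood near 0. Eif3a had 1108, 956 and 837 CPM in knockout single embryos, against 999.7, 922 and 863 CPM in wild-type ones, with a log2 change of 0.11 (SE 0.17, adjusted p = 0.757) and full overlap. Eif3b likewise had 0.11 (SE 0.18, adjusted p = 0.778). Eif3c (0.53, SE 0.18), Eif3d (0.66, SE 0.18), Eif3e (0.73, SE 0.24), Eif3h (0.69, SE 0.21) and Eif3l (0.93, SE 0.28) did not pass by edgeR, with adjusted p-values from 0.0614 for Eif3d to 0.104 for Eif3c. DESeq2 called all 5 of these higher, and limma-voom called Eif3d. The loosely bound subunit eIF3j has 2 genes that share reads (51.0% and 87.4% of their windows recur elsewhere). They had log2 changes of -0.00 (SE 0.24) for Eif3j1 and 0.05 (SE 0.45) for Eif3j2, and Eif3f had 0.15 (SE 0.19).

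Levels within eIF3 were far apart, although the subunits other than eIF3j occur once each in the complex. Per kilobase of transcript, Eif3k was highest in every group, at 783 CPM per kilobase in knockout single embryos, 469.7 in wild-type single embryos, 920.1 in knockout pools and 875 in control pools. The median eIF3 gene had 252, 154, 199.5 and 194 CPM per kilobase in the same groups. Eif3j1 and Eif3j2 were lowest, at 6.47 to 14.3 CPM per kilobase in any group. These levels rest on 1 transcript length per gene.

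eIF2 brings the initiator tRNA, and its subunit genes did not change together. Of 3 tested genes 0 passed by edgeR or limma-voom and 1 (Eif2s1) by DESeq2. At an unadjusted p under 0.05 there was 1 of the 3, which is near the share of all genes (22.6%). Eif2s1 encodes the alpha subunit, whose phosphorylation slows initiation. It had 681, 354 and 649.9 CPM in knockout single embryos, against 248, 277 and 358 CPM in wild-type ones, and knockout 3 lay just inside the wild-type range. Its log2 change was 0.999 (SE 0.29, edgeR adjusted p = 0.0712). Eif2s2, the beta subunit gene and the most abundant of all the initiation factor genes by CPM, had 2915, 3707 and 3183 CPM in knockouts, against 3347, 3049 and 3195 CPM in wild types. Its log2 change of 0.07 (SE 0.14, adjusted p = 0.807) lay within the spread. Eif2s3x, the X-linked gamma subunit gene, had -0.10 (SE 0.26). The levels were not alike: Eif2s2 had 1286, 1258, 1471 and 1329 CPM per kilobase in knockout single embryos, wild-type single embryos, knockout pools and control pools. Eif2s1 had 165, 86.4, 169 and 192, and Eif2s3x had 9.66, 10.7, 6.97 and 6.03 in the same order. Of their windows 22.4% (Eif2s2) and 35.7% (Eif2s3x) recur in other transcripts, and the part of shared reads in these gaps was not tested. Eif2s3y, the Y-linked copy left out by the rule, had 0 counts in all 6 single female embryos and 57.5 to 59.0 CPM in the pools.

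eIF2B recharges eIF2 with GTP. Of its 5 genes 1 rose (all genes 1.16%), with 3 at an unadjusted p under 0.05 (all genes 22.6%), and the median log2 change was 0.60. Eif2b1 (chromosome 5, 124570214 to 124579131), the alpha subunit gene, had 387, 275 and 359 CPM in knockout single embryos, against 135, 204 and 175 CPM in wild-type ones. It changed by 1.05 on the log2 scale (SE 0.23, adjusted p = 0.0334), with no overlap. Eif2b2 (0.60, SE 0.24), Eif2b3 (0.68, SE 0.21) and Eif2b4 (0.36, SE 0.20) did not pass by edgeR. Of these, DESeq2 called Eif2b3 higher. Eif2b5, the gene of the catalytic epsilon subunit, had 0.18 (SE 0.19, adjusted p = 0.63).

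**Figure D3:**
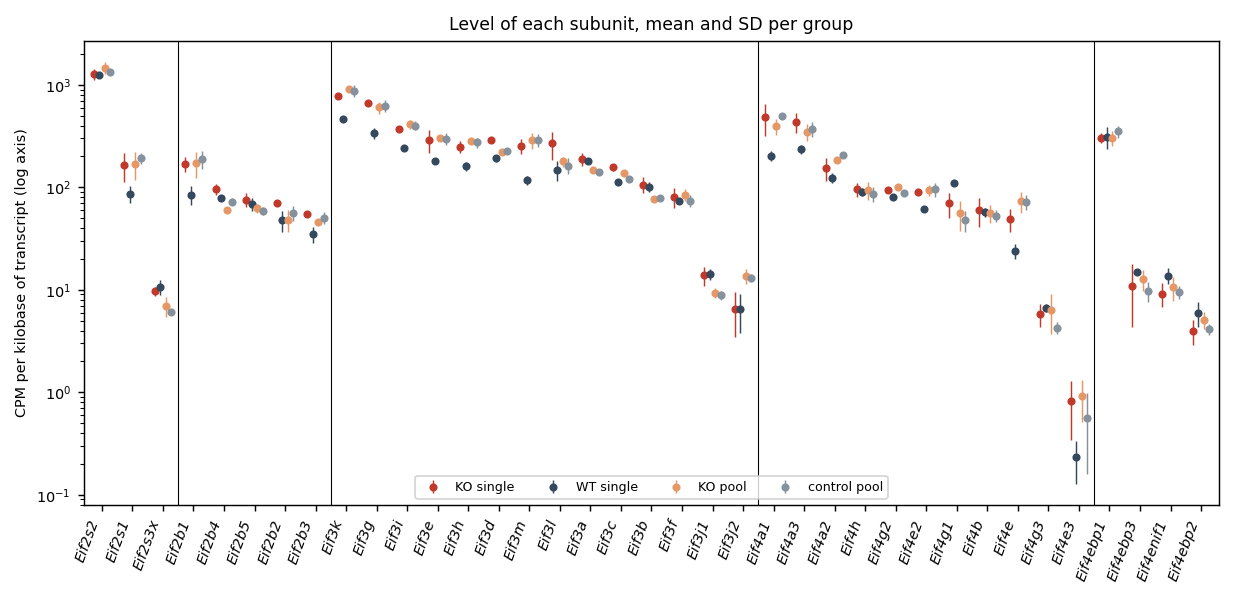
Mean CPM per kilobase of transcript with SD (n = 3 single embryos or 2 pools per group) for the genes of eIF2, eIF2B, eIF3, eIF4 and the eIF4E-binding proteins, on a log axis, ordered by level within each factor. Eif2s2 lies far above Eif2s3x in all 4 groups, and Eif3k far above Eif3j1 and Eif3j2; Eif4e1b is left out.

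The factors that act at start codon choice and after it included 2 genes that rose. Eif5 (chromosome 12, 111538101 to 111546753), the activator of GTP hydrolysis by eIF2, had 1630.0, 1456 and 1706 CPM in knockout single embryos, against 953, 1055 and 792 CPM in wild-type ones, a log2 change of 0.83 (SE 0.17, adjusted p = 0.0271). Eif6 (chromosome 2, 155819837 to 155826925), whose product keeps free large subunits from joining too early, had 596, 478 and 462 CPM in knockouts, against 221, 314 and 325 CPM in wild types, a log2 change of 0.89 (SE 0.22, adjusted p = 0.0454). Both genes were without overlap. Eif5a, whose product carries the modified amino acid hypusine and also serves elongation, was just outside the threshold by edgeR. It had 3131, 2159 and 3119 CPM in knockout single embryos, against 1109, 1704 and 1799 CPM in wild-type ones, a log2 change of 0.93 (SE 0.24, adjusted p = 0.0533). DESeq2, limma-voom, the 3 other scalings, both other filters and 1 fit of all libraries called it higher. Robust fitting, the replicate number as a block and the length and GC correction did not. With 1 library left out, it was called only without knockout replicate 3. Its rare paralogue Eif5a2 had 5.05, 3.58 and 4.48 CPM in knockouts, against 0.00, 0.11 and 0.81 CPM in wild types. These did not overlap, and the edgeR adjusted p was 0.0921. Eif5b had -0.29 (SE 0.20, adjusted p = 0.448), with 397, 397 and 322 CPM in knockouts, against 577, 379.6 and 448 CPM in wild types. Of the 4 eIF1 and eIF1A genes, which help to select the start codon, 0 passed by edgeR or limma-voom. Past an unadjusted p of 0.05 there were 3 (all genes 22.6%), and 3 (Eif1, Eif1a and Eif1ax) were higher by DESeq2 (all genes 6.88%). Eif1a had 469.9, 386 and 463 CPM in knockout single embryos, against 279, 296 and 324 CPM in wild-type ones, a log2 change of 0.61 (SE 0.19, adjusted p = 0.0897). Eif2a and Eif2d, which can bring initiator tRNA without eIF2, had 0.52 (SE 0.24) and 0.49 (SE 0.21), and Eif1ad had 0.22 (SE 0.20).

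In the pools no initiation factor gene differed at the threshold. By edgeR 0 of 50 passed, as did 0 by DESeq2 and 0 by limma-voom, and 0 had an unadjusted p under 0.05. Over all 16259 genes tested, 0.0% passed by edgeR, 0.437% by DESeq2 and 0.00615% by limma-voom, and 6.6% were past an unadjusted p of 0.05, 4.26% higher and 2.34% lower. The median log2 change was -0.04, against 0.01 over all genes, and 18 of the 50 genes were above 0, against 51.3% of all genes. Every knockout pool lay above every control pool in 3 genes (Eif3c, Eif4g2 and Eif5a2), against 24.3% of all genes, and below in 4 (Eif2b3, Eif2b4, Eif4a1 and Eif4a2), against 11.1%. Eif4a1 had 784 and 616 CPM in knockout pools, against 934 and 843 CPM in control pools, a log2 change of -0.42 (SE 0.19, adjusted p = 0.753). Eif5a had 2522 and 1485 CPM in knockouts, against 3026 and 2168 CPM in controls, a log2 change of -0.45 (SE 0.27, adjusted p = 0.834), and the ranges overlapped. Without knockout pool 1, Eif5a was lower (log2 change -0.97, adjusted p = 0.00885) and Eif4g3 was higher past 5%, with 2.21% of all genes called in that fit. Eif3g had 723 and 602 CPM in knockout pools, against 760.4 and 622 CPM in control pools, and Eif3m had 416 and 323 CPM, against 409 and 331 CPM. The log2 changes of the 10 genes that rose in single embryos ran from -0.42 (Eif4a1) to 0.07 (Eif5) in the pools.

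The difference between the single-embryo and the pool effect was tested in 1 fit over the 10 libraries. By edgeR 0 of 50 genes passed 5%, against 0.0063% of all 15878 genes, and 25 had an unadjusted p under 0.05 against 14.6% of all genes. Of these, 24 were higher in single embryos (all genes 8.1%) and 1, Eif4g1, was lower (all genes 6.55%). DESeq2 called 11 of the 50, all higher in single embryos, against 2.01% of all genes higher and 3.43% in either direction. By limma-voom 0 were called. The median difference was 0.67 on the log2 scale, and 43 of the 50 genes were above 0, against 47.9% of all genes. It was 1.77 (SE 0.40) for Eif4a1, 1.28 (SE 0.33) for Eif3m and 1.18 (SE 0.28) for Eif3g, with an adjusted p of 0.235 for each, the smallest among the initiation factor genes. By edgeR the effects of the sets are thus not shown to differ for any of them.

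**Figure D4:**
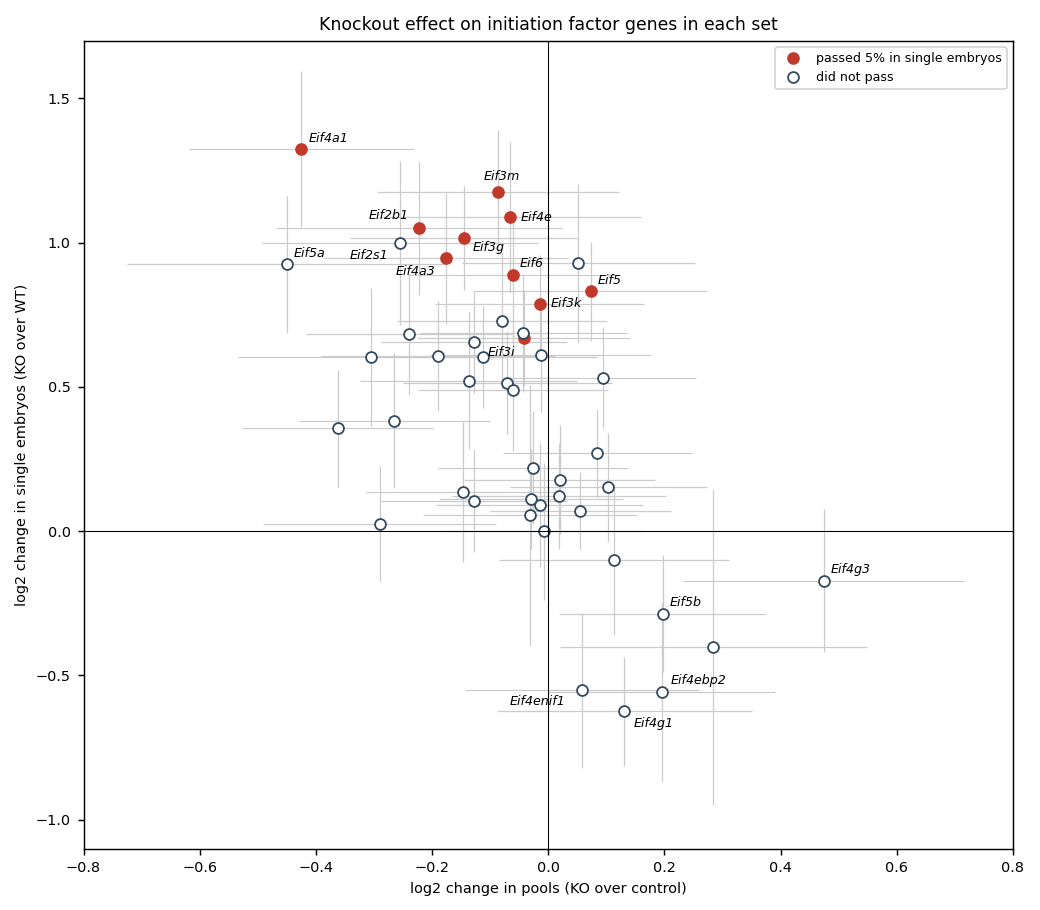
Log2 change in single embryos (knockout over wild type) against log2 change in pools (knockout over control) for each initiation factor gene, with standard errors; filled points rose past 5% in single embryos. The 10 filled points lie at 0.67 to 1.33 on the vertical axis and at -0.42 to 0.07 on the horizontal axis; Eif5a2 and Eif4e3, with few counts, are left out.

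The wild-type single embryos were the group set apart for these genes. In 19 of the 49 genes (38.8%) every wild-type single embryo lay below all 7 other libraries, against 7.70% of all 13677 genes tested in both sets. These 7 include the knockout single embryos, so the count is not separate from the comparison of knockouts and wild types above. Against the knockout single embryos alone, every wild type lay below in 25 of the 49 genes, against 12.6% of all genes. The median of wild-type single embryos minus control pools was -0.25 on the log2(CPM + 1) scale over the 49 genes and 0.21 over all genes. For knockout single embryos minus knockout pools it was -0.00 over the 49 genes and 0.04 over all genes. The median deviation of the 49 genes from their mean over the 10 libraries was 0.24, 0.12 and 0.24 in knockout single embryos, -0.44, -0.21 and -0.17 in wild-type ones, 0.10 and 0.13 in knockout pools and 0.09 and 0.03 in control pools. Wild-type replicate 1, the lowest, also had the fewest counts and the highest place on the first principal axis. Single and pooled libraries differ in input and depth. They also differ in sex. The Y-linked Eif2s3y had 0 CPM in every single female embryo and 57.5 to 59.0 CPM in the pools, which thus included male embryos. The part of these differences in the result was not tested.

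Transcript length moved with the change. Over the 49 genes Spearman's rho between length and log2 change was -0.40 in single embryos and 0.41 in pools, and over 12484 genes it was -0.28 and 0.16. These are descriptions across genes of the same libraries. Among the 17 initiation factor genes under 2000 bases the median log2 change in single embryos was 0.73 and 7 rose, against a median of 0.27 over all genes of that length. Among the 21 of 2000 to 4000 bases it was 0.36 and 1 rose (all genes 0.02). Among the 11 over 4000 bases it was 0.11 and 2 rose (all genes -0.36). In each length class their median therefore lay above that of all genes. With a correction for length and GC content, added after the data were seen, 5 genes were called (Eif2b1, Eif3g, Eif4a1, Eif4e and Eif5), against 0.827% of all genes called higher, and the median was 0.40. Eif3m (0.74, adjusted p = 0.058), Eif6 (0.84, adjusted p = 0.058), Eif4a3 (0.77, adjusted p = 0.0766), Eif3k (0.52, adjusted p = 0.117) and Eif3i (0.40, adjusted p = 0.196) no longer passed.

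**Figure D5:**
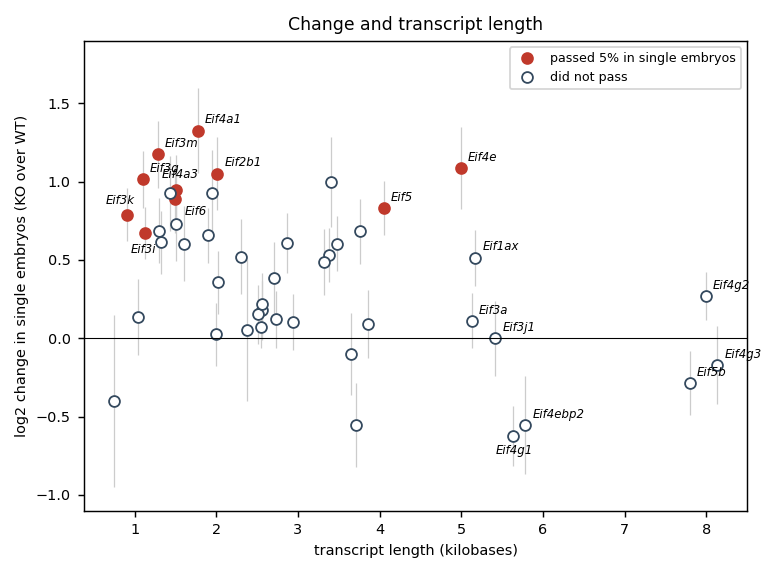
Log2 change in single embryos (knockout over wild type, with standard error) against transcript length in kilobases for each initiation factor gene; filled points rose past 5%. Of the 10 that rose, 7 are under 2 kilobases long, and the 5 longest genes lie between -0.62 and 0.27; Eif5a2 and Eif4e3 are left out.

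Promoters of the genes were searched for CACGTG, the E-box bound by Myc and related factors, since translation genes are known Myc targets. The motif reads the same on both strands. The RefSeq promoter table for GRCm38.p6, with 250 bases before and 50 after each start, held 39 of the 51 genes. The letters occurred in 10 of the 39 (25.6%), against 8.09% of 27025 genes in the table and 11.8% of the genes tested in single embryos that have a promoter there. They occurred in 3 of the 8 genes with a promoter that rose and in 7 of the other 31. The 3 are Eif4e, Eif4a1 and Eif3k, shown here with Eif4g1, the 1 gene that was lower without overlap, whose promoter holds the letters in 2 places. Eif4e has another RefSeq start whose promoter lacks the letters, and a gene counted if any of its promoters held them. Each is given 5′ to 3′ on the strand of its gene, from 210 bases before a RefSeq start to 25 bases from it, with the motif in capitals. The windows are chr3:138527058-138527292 (plus strand) for Eif4e, chr11:69672399-69672633 (minus strand) for Eif4a1, chr7:28981864-28982098 (minus strand) for Eif3k and chr16:20672517-20672751 (plus strand) for Eif4g1.
Eif4e: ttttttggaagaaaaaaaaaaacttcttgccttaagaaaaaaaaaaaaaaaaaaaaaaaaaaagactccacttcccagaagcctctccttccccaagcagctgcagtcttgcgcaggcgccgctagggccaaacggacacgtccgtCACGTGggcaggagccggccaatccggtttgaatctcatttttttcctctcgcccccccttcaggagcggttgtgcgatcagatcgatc
Eif4a1: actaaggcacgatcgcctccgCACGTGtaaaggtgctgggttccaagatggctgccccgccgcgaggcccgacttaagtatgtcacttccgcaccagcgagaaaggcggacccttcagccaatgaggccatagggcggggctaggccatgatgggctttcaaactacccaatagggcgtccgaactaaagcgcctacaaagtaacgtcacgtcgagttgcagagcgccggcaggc
Eif3k: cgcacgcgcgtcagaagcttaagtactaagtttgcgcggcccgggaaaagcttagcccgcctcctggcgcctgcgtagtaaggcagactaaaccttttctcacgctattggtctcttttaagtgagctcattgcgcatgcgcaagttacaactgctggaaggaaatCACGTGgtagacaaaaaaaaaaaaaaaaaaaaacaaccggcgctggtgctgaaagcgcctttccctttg
Eif4g1: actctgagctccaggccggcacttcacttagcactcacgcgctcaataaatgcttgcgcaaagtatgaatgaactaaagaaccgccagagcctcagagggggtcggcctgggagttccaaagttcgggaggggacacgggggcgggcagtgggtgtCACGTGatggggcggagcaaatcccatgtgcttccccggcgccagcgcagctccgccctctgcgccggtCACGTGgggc
The motif begins 64 bases before the start in Eif4e, 189 in Eif4a1 and 44 in Eif3k. In Eif4g1 a copy begins 54 bases before the start and another lies behind it. A match describes these letters only and is no measure of binding. The same promoters were also searched for a run of C and T letters that begins with C at the start. It occurred in 3 of the 39 genes (7.69%), namely Eif2c5, Eif2s3x and Eif3f, against 3.01% of 27025 genes. None of these is among the 10 that rose.

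Other genes of translation and its control were read from the same fits. In single embryos 4.37% of all genes were called by edgeR, 14.2% by DESeq2 and 5.47% by limma-voom, and 22.6% had an unadjusted p under 0.05. These are the shares to set beside the counts here. Of 15 tested genes for elongation factors and for enzymes that modify them or eIF5A, 0 passed by edgeR in either set, with medians of 0.58 in single embryos and -0.03 in pools. Without the enzymes, the log2 changes in single embryos ran from 0.07 (Eef2) to 1.02 (Eefsec). In single embryos 6 of the 15 were past an unadjusted p of 0.05, DESeq2 called 6 and limma-voom 0. The most abundant, Eef1a1, had 1449, 2342 and 1585 CPM in knockout single embryos, against 1256, 1844 and 1257 CPM in wild-type ones, which overlapped (log2 change 0.34, SE 0.20, adjusted p = 0.342). Eef1g came nearest, with 573, 705 and 609.9 CPM in knockouts, against 405, 489 and 409 CPM in wild types (0.58, SE 0.16, adjusted p = 0.0681). Eef1a1 and Eef1g were picked after their values were seen, as were Eif2ak3, Ppp1r15b, Ppp1r15a, Ppp1ca and Ppp1cc in what follows. In single embryos 0 of 7 termination and recycling genes passed by edgeR (median 0.07, 3 at an unadjusted p under 0.05, 3 by DESeq2, 0 by limma-voom). Of 17 genes of mTOR and MAPK control of cap binding 0 passed (median -0.15, 3 unadjusted, 3 by DESeq2, 0 by limma-voom). Of 19 other genes of initiation and poly(A) binding 0 passed (median 0.22, 9 unadjusted, 6 by DESeq2, 0 by limma-voom).

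The eIF2 kinases and phosphatase subunits had a median of -0.39, and 0 of 10 passed by edgeR. At an unadjusted p under 0.05 there were 5 (all genes 22.6%), with 4 called by DESeq2 (all genes 14.2%) and 0 by limma-voom. Eif2ak3, the kinase gene of the endoplasmic reticulum stress branch, had 10.5, 14.2 and 11.1 CPM in knockout single embryos, against 21.4, 28.1 and 37.8 CPM in wild-type ones, without overlap (-1.25, SE 0.34, adjusted p = 0.0633). Ppp1r15b, a gene of the phosphatase that reverses eIF2 phosphorylation, had 24.3, 44.4 and 25.3 CPM in knockouts, against 79.5, 51.4 and 70.04 CPM in wild types (-1.07, SE 0.30, adjusted p = 0.0648). Ppp1r15a, another phosphatase subunit gene, had 36.6, 31.9 and 17.9 CPM in knockouts, against 35.9, 68.7 and 56.8 CPM in wild types. These overlapped (-0.85, SE 0.35, adjusted p = 0.175). Ppp1ca, the gene of a catalytic phosphatase subunit, lay the other way, with 427, 365 and 604 CPM in knockouts, against 141, 279 and 299.5 CPM in wild types (1.01, SE 0.30, adjusted p = 0.0803). Ppp1cc, another catalytic subunit gene, had 0.62 (SE 0.23, adjusted p = 0.141). Of 13 targets of the integrated stress response 2 rose and 1 fell by edgeR, against 1.16% and 3.21% of all genes. At an unadjusted p under 0.05 there were 4 of the 13, against 22.6% of all genes. The amino acid synthesis genes Asns (1.71, SE 0.36, adjusted p = 0.0274) and Psat1 (1.19, SE 0.23, adjusted p = 0.0227) rose. Slc3a2, a subunit gene of amino acid transporters, fell by 1.05 on the log2 scale (SE 0.21, adjusted p = 0.0267). In the pools 0 genes of these lists passed by edgeR, DESeq2 or limma-voom (all genes 0%, 0.437% and 0.00615%). At an unadjusted p under 0.05 there were 1 of 7 termination genes and 5 of 16 stress response targets, against 6.6% of all genes.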

How the data were processed

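Read counts per gene were deposited by the authors as whole numbers without normalization. Per the submitters' processing notes fastp 0.21.0, STAR 2.7.6a, RSEM 1.3.1 and the assembly mm10 were used; which of them made the counts, and how strand and shared reads were handled, is not stated there. Reads of overlapping genes and of pseudogenes can therefore not be told apart. Of the initiation factor genes, 8 share over 20% of their 75-base windows with another transcript (GENCODE M21), 23 share none, and 12 have exons overlapping another gene of the table. Per the labels' protocols, cDNA was made with SMART-Seq v4 and sequenced as single reads of 75 bases.

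The tests used edgeR 4.0.16 under R 4.3.3 (filterByExpr, TMM, quasi-likelihood F test, two-sided, Benjamini-Hochberg adjustment at 5% over all genes tested), for each set by itself and for the difference over all 10 libraries. Alternatives were other scalings, DESeq2 1.42.0, limma-voom (3.58.1), other filters, robust fitting, 1 fit of all libraries, the replicate number as a block, each library left out, and a length and GC correction added after the data were seen. The fits were also run on simulated data with 200 changed genes, drawn with the spread estimated from these same libraries. The outcome is not given here and no result rests on it. CPM used library totals. Reads carried no molecular identifiers. Replicates of a group differed by far more than sampling noise (a chi-square of 49.4 to 88.4 per gene).

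The genes and lists were chosen with earlier results of these data known. Given per library were genes past 5%, the gene with the smallest p of each factor group in each set, and the 5 of highest mean CPM; Eif4g1, Eif4a2 and Eif5b were added after their values were seen.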

Additional observations from a re-analysis of the deposited data

How the results depend on the processing

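All 10 calls in single embryos were kept under the 3 other scalings, DESeq2, limma-voom, both other filters, robust fitting and 1 fit of all libraries. The number of initiation factor genes higher in knockouts was 22 by DESeq2 (all genes 6.88%), 18 without a filter (3.16%), 17 with a filter of 10 CPM (5.37%), 23 in 1 fit of all 10 libraries (4.98%) and 5 with the length and GC correction (0.827%), whose median was 0.40. Of these, DESeq2 and the filter of 10 CPM also called 1 lower. With 1 library left out, the count higher ran from 0 to 19 and the count lower from 0 to 1. With the replicate number as a block (replicate block) 0 were called in single embryos, against 0.412% of all genes higher and 1.35% in either direction. The labels do not say that a number pairs embryos, and same-numbered single embryos deviated with correlations of -0.01 and -0.08; in the pools the correlation was 0.32. The cause of these changes was not tested.

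In the pools the median log2 change was 0.011 with upper-quartile scaling, 0.052 with library totals, 0.0066 with a filter of 10 CPM and -0.096 with the length and GC correction, and ran from -0.16 to 0.038 with 1 library left out. Counts higher and lower ran from 0 to 1. Library totals moved the median of all genes to 0.10 in pools and to -0.21 for the difference. For the difference DESeq2 called 11 (all genes 3.43%) and the fit without a filter 8 (2.08%).

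Among the genes given per library, these signs turned. In single embryos Eif2s2 was -0.18 with the length and GC correction, and Eif4ebp1 was -0.022 with library totals and -0.20 with that correction. In the pools, upper-quartile scaling, library totals and the filter of 10 CPM gave 0.019, 0.061 and 0.030 for Eif3a, 0.0056, 0.043 and 0.016 for Eif3i, and 0.032, 0.073 and 0.044 for Eif3k. Library totals gave 0.015 for Eif4e, 0.026 for Eif6 and 0.028 for Eif2d. The length and GC correction gave -0.015 for Eif4g2 and -0.044 for Eif4enif1. With 1 library left out, log2 changes in single embryos ran from -0.050 to 0.20 for Eif3a and from -0.15 to 0.17 for Eif4ebp1. In the pools they ran from -0.43 to 0.014 for Eif1a, from -0.68 to 0.076 for Eif2s1, from -0.025 to 0.13 for Eif2s2, from -0.63 to 0.099 for Eif2b1, from -0.066 to 0.0039 for Eif3a, from -0.36 to 0.042 for Eif3g, from -0.22 to 0.11 for Eif3i, from -0.17 to 0.16 for Eif3k, from -0.36 to 0.14 for Eif3m, from -0.45 to 0.056 for Eif4a3, from -0.41 to 0.21 for Eif4e, from -0.16 to 0.24 for Eif4enif1, from -0.14 to 0.32 for Eif5, from -0.21 to 0.096 for Eif6, from -0.37 to 0.061 for Eif2a and from -0.13 to 0.0032 for Eif2d.

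The 3 single embryos and 2 pools per genotype set the precision. A fit without a pool leaves a lone library that is assumed to vary like the others. Single-embryo libraries are shallower than pools, and genes under about 5 CPM, such as Eif5a2, rest on few reads.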
